A study of Mus musculus with 8 samples.

Results

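Blood vessel genes are described here in mouse oral carcinomas that had been injected with the chemokine CXCL10. The 10 genes Cdh5, Eng, Vwf, Tek, Tie1, Kdr, Dll4, Angpt1, Angpt2 and Vegfa were taken by symbol from a targeted panel, and all 10 of them had a row among its 693 measured genes. They cover identity genes of endothelium, the receptors it carries and the ligands that act on those receptors or are made by sprouting vessels. They were chosen by the measured log2 differences between CXCL10 and vehicle tumours as well as by their roles, so those differences are given as a description and were not tested.

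The tumours grew from 4MOSC1, a single mouse oral squamous cell carcinoma line, which was implanted in the right buccal space. The hosts were female C57BL/6N mice aged 4 to 6 weeks. In the CXCL10 group, 4 tumours received 10 µg of the chemokine in 50 µl of phosphate-buffered saline by direct injection on days 3, 6 and 9. In the vehicle group, 4 tumours received 50 µl of the saline alone on those days. The labels do not say that each tumour came from its own mouse, so the spread given is that between these tumours and may in part be technical. The titles date every tumour to day 10, whereas the source labels run by 1 day per tumour, with days 14 to 17 for CXCL10 and days 10 to 13 for vehicle. The titles were followed, and by the source labels day and treatment could not be told apart.

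The inner lining of vessels is held together by VE-cadherin, the product of Cdh5, and is instructed by a pair of receptor systems. VEGF-A acts through the receptor encoded by Kdr to start sprouting, and the leading cells of a sprout present the Notch ligand Dll4 to their neighbours. Angiopoietin-1 from cells around the vessel keeps it quiet through the receptor encoded by Tek, with Tie1 as a partner, and angiopoietin-2, released by endothelium itself, can oppose that signal. CXCL10 belongs to the chemokines known to restrain vessel growth and acts through the receptor CXCR3. In a transplanted tumour of this kind the vessels come from the host mouse.

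Levels are log2 normalized probe counts as the authors deposited them, and a difference of 1 on this scale is a doubling. Whole counts recovered from these levels summed to 1028938 to 1167694 over the panel in CXCL10 tumours, against 973697 to 1021358 in vehicle tumours. The 10 genes had recovered counts between 23, for Angpt1, and 1574, for Vegfa, in single tumours. Endothelial RNA was present in every tumour, with Cdh5 at 147 counts or more and Pecam1, which encodes the junction protein CD31, at 738 or more. Probes differ in efficiency, so levels of different genes are not ranked against each other. RNA came from whole tumours, in which fewer endothelial cells and less RNA per endothelial cell cannot be told apart.

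In 7 of the 10 genes the mean level was lower in CXCL10 tumours: Cdh5, Eng, Vwf, Tek, Tie1, Kdr and Dll4. In 6 of those, all except Vwf, every CXCL10 tumour lay below every vehicle tumour. The other 3 genes, Angpt1, Angpt2 and Vegfa, had higher means in CXCL10 tumours, with groups that overlapped. Over the panel, 30.4% of genes had a lower mean, 69.6% had a higher one, and 3.03% lay lower in every CXCL10 tumour. With median-of-ratios scaling 323 panel genes had a lower mean and 370 a higher one, against 211 and 482 as deposited. Nothing is read from that comparison, since the same contrast chose the genes. Their median log2 difference was -0.41, against 0.13 over all 693 genes.

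**Figure D1:**
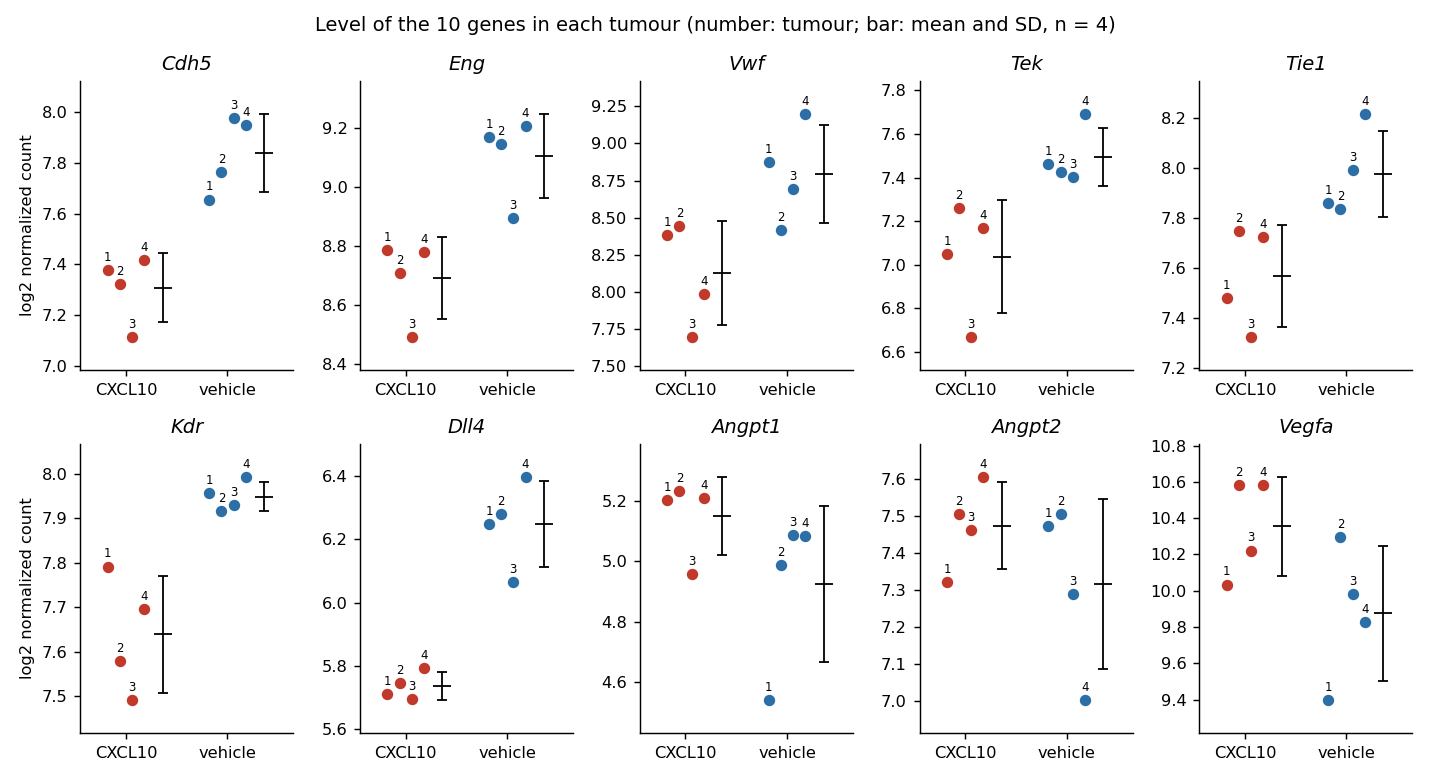
Log2 normalized count (vertical axis, its own range for each gene and not starting at 0) of the 10 genes in 4 CXCL10 tumours (red, left) and 4 vehicle tumours (blue, right). Points carry the tumour number and the bars give the mean and SD. CXCL10 tumour 3 is the lowest of the 8 tumours in each of Cdh5, Eng, Vwf, Tek, Tie1, Kdr and Dll4.

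Among the identity genes, Cdh5 (Entrez 12562), the cadherin of endothelial junctions, stood at log2 levels of 7.38, 7.32, 7.11 and 7.42 in CXCL10 tumours 1 to 4, against 7.66, 7.77, 7.98 and 7.95 in vehicle tumours 1 to 4. The highest CXCL10 tumour was 0.24 below the lowest vehicle tumour. The means were 7.31 ± 0.14 in CXCL10 and 7.84 ± 0.15 in vehicle tumours (SD, n = 4 each), a log2 difference of -0.53 (SE 0.10) or 0.693 times the vehicle level. Eng (Entrez 13805) encodes endoglin, a co-receptor for TGF-beta family ligands on dividing endothelium. Its log2 levels were 8.79, 8.71, 8.49 and 8.78 in CXCL10 tumours, against 9.17, 9.15, 8.90 and 9.21 in vehicle tumours. The groups were separated by a gap of 0.11, with vehicle tumour 3 nearest to the CXCL10 group. The mean was 8.69 ± 0.14 in CXCL10 and 9.11 ± 0.14 in vehicle tumours (SD, n = 4 each), a log2 difference of -0.41 (SE 0.099).

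Vwf (Entrez 22371) encodes von Willebrand factor, which endothelium and platelets store and release to start clotting. It stood at log2 levels of 8.38, 8.44, 7.70 and 7.99 in CXCL10 tumours, against 8.87, 8.41, 8.69 and 9.20 in vehicle tumours. Here the groups met, because CXCL10 tumour 2 lay just above vehicle tumour 2. Both groups were widely spread, with means of 8.13 ± 0.35 in CXCL10 and 8.79 ± 0.33 in vehicle tumours (SD, n = 4 each). The log2 difference of -0.67 (SE 0.24), or 0.630 times the vehicle level, was the lowest of the 10 genes and had the widest error. Platelets carry Vwf too. Of 10 platelet genes listed, 3 were on the panel (Itga2b, Itgb3 and Ppbp), and all 3 had higher means in CXCL10 tumours as deposited, but only 1 with median-of-ratios scaling or quantile normalization. Their part in the Vwf values was not tested.

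Among the receptors, Tek (Entrez 21687), which binds the angiopoietins, stood at log2 levels of 7.05, 7.26, 6.67 and 7.17 in CXCL10 tumours, against 7.46, 7.42, 7.40 and 7.69 in vehicle tumours. CXCL10 tumour 3 was far below the other CXCL10 tumours, and vehicle tumour 4 above the other vehicle tumours. The log2 difference was -0.46 (SE 0.15), and without CXCL10 tumour 3 it was -0.33. Tie1 (Entrez 21846), the partner of Tek that has no angiopoietin of its own, had log2 levels of 7.48, 7.75, 7.32 and 7.72 in CXCL10 tumours, against 7.86, 7.84, 7.99 and 8.21 in vehicle tumours. The order of the tumours was close to that of Tek, and the gap between the groups was 0.090, the narrowest of the 6 genes without overlap. Its log2 difference was -0.41 (SE 0.13).

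Kdr (Entrez 16542), the main signalling receptor for VEGF-A on endothelium, stood at log2 levels of 7.79, 7.58, 7.49 and 7.69 in CXCL10 tumours, against 7.96, 7.92, 7.93 and 7.99 in vehicle tumours. The vehicle tumours were nearly alike, and the CXCL10 tumours were spread below them. The means were 7.64 ± 0.13 in CXCL10 and 7.95 ± 0.034 in vehicle tumours (SD, n = 4 each). The log2 difference of -0.31 (SE 0.068), or 0.807 times the vehicle level, was the smallest of the 7 lower genes. With each tumour centred on the panel median the groups of Kdr overlapped, which left 5 genes without overlap in place of 6.

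The sequences before the starts of Tie1, Tek and Eng are shown as examples of endothelial genes that moved together between tumours. Kdr also had an entry, but its window is not printed. Its Pearson r with Tie1 over the 8 tumours, 0.78, was the lowest of the 21 pairs of lower genes, against 0.96 for Tek with Tie1. The choice includes both genes found below to hold a motif match. Each line gives the 250 bases before the annotated start on the gene's own strand, from RefSeq on mouse build GRCm38.p6. Tie1 is read on the minus strand of chr4:118489850-118490099, Tek on the plus strand of chr4:94739039-94739288 and Eng on the plus strand of chr2:32646345-32646594. Capitals mark AGGAAG or CGGAAG on either strand, both letter forms of a motif bound by ETS family factors, which are known regulators of endothelial genes.
Tie1: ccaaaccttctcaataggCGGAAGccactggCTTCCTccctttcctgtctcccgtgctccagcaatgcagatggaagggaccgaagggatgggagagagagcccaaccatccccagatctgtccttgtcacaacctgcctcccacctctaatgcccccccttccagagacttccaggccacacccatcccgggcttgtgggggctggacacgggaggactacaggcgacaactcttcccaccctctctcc
Tek: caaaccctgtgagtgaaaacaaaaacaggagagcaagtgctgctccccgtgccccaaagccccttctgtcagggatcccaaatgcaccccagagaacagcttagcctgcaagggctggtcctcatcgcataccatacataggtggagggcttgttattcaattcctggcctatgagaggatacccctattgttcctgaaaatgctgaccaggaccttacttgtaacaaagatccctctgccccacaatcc
Eng: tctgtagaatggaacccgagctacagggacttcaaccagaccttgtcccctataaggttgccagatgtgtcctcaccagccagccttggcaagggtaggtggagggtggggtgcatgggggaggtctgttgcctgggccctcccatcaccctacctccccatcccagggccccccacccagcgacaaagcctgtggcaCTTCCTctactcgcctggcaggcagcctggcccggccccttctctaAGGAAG

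The Tie1 and Eng windows hold 2 matches each, and the Tek window holds 0. Of the 6 genes among the 10 with an entry (Eng, Tek, Tie1, Kdr, Dll4 and Vegfa), only Tie1 and Eng had a match in these 250 bases. A match occurred in 39.2% of 32851 windows of the same length before mouse gene starts. Counted by gene, with any start taken, 253 of 508 panel genes with an entry held a match, so 2 genes of 6 is no excess. The short form ACGTG, bound by hypoxia-inducible factors, occurred in 16.6% of those windows and, among the 6 genes, once, before the second of 2 annotated Vegfa starts.

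Among the ligands, Dll4 (Entrez 54485), the Notch ligand of sprouting and arterial endothelium, stood at log2 levels of 5.71, 5.75, 5.70 and 5.79 in CXCL10 tumours, against 6.25, 6.28, 6.07 and 6.40 in vehicle tumours. The 4 CXCL10 tumours were nearly alike and the gap to the vehicle group, 0.27, was the widest of the 10 genes. The means were 5.74 ± 0.043 in CXCL10 and 6.25 ± 0.14 in vehicle tumours (SD, n = 4 each), a log2 difference of -0.51 (SE 0.072) or 0.702 times the vehicle level. These levels rest on 50 to 57 recovered counts in CXCL10 tumours, against 69 to 82 counts in vehicle tumours.

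The angiopoietins did not share this pattern. Angpt1 (Entrez 11600), the ligand that activates Tek, had log2 levels of 5.20, 5.23, 4.96 and 5.21 in CXCL10 tumours, against 4.54, 4.99, 5.09 and 5.08 in vehicle tumours. CXCL10 tumour 3 lay within the vehicle range, and vehicle tumour 1 was the lowest of all. The log2 difference was 0.22 (SE 0.14), and without vehicle tumour 1 it was 0.098. With 33 to 40 counts in CXCL10 tumours, against 23 to 35 counts in vehicle tumours, Angpt1 was the least deeply measured of the 10 genes. Before normalization the summed counts were 146 in CXCL10 tumours (95% Poisson interval 123 to 172) and 120 in vehicle tumours (99.5 to 143), and these intervals, which cover counting error only, overlap.

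Angpt2 (Entrez 11601), the angiopoietin that endothelium stores with von Willebrand factor, had log2 levels of 7.32, 7.50, 7.46 and 7.60 in CXCL10 tumours, against 7.47, 7.50, 7.29 and 7.00 in vehicle tumours. The groups overlapped, and the low vehicle tumour was number 4, which was the highest tumour for Vwf and Tek. The log2 difference was 0.16 (SE 0.13), 0.052 without vehicle tumour 4, and between 0.024 and 0.22 over the 12 other settings that could move it. Vegfa (Entrez 22339), made by carcinoma cells, macrophages and other cells short of oxygen, had log2 levels of 10.03, 10.58, 10.22 and 10.58 in CXCL10 tumours, against 9.40, 10.30, 9.98 and 9.83 in vehicle tumours. In Vegfa too the groups overlapped, through vehicle tumour 2. The log2 difference was 0.48 (SE 0.23), or 1.39 times the vehicle level, and it ran from 0.32 without vehicle tumour 1 to 0.62 without vehicle tumour 2.

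**Figure D2:**
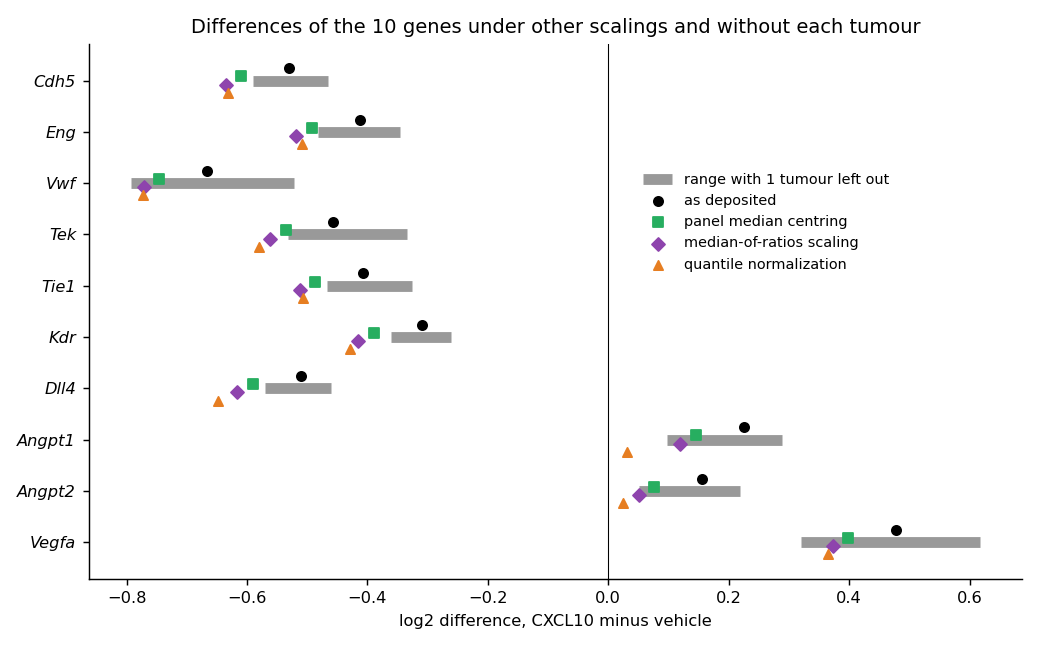
Log2 difference, CXCL10 minus vehicle (horizontal axis), of the 10 genes (rows) as deposited (black circles) and under 3 other scalings (coloured marks), with the range when 1 of the 8 tumours is left out (grey bars). The 7 lower genes stay left of 0 in every setting, and Angpt1 and Angpt2 come close to 0, at 0.031 and 0.024, with quantile normalization.

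The authors' scaling left the median panel gene at a log2 difference of 0.13, against 0.021 with median-of-ratios scaling and 0.012 with quantile normalization. Relative to the panel median of 0.13, the 7 lower genes stood at -0.79 (Vwf) to -0.44 (Kdr). On the same footing Vegfa stood at 0.35, Angpt1 at 0.099 and Angpt2 at 0.030. The direction of none of the 10 differed between the authors' scaling, panel median centring, median-of-ratios scaling and quantile normalization.

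**Figure D3:**
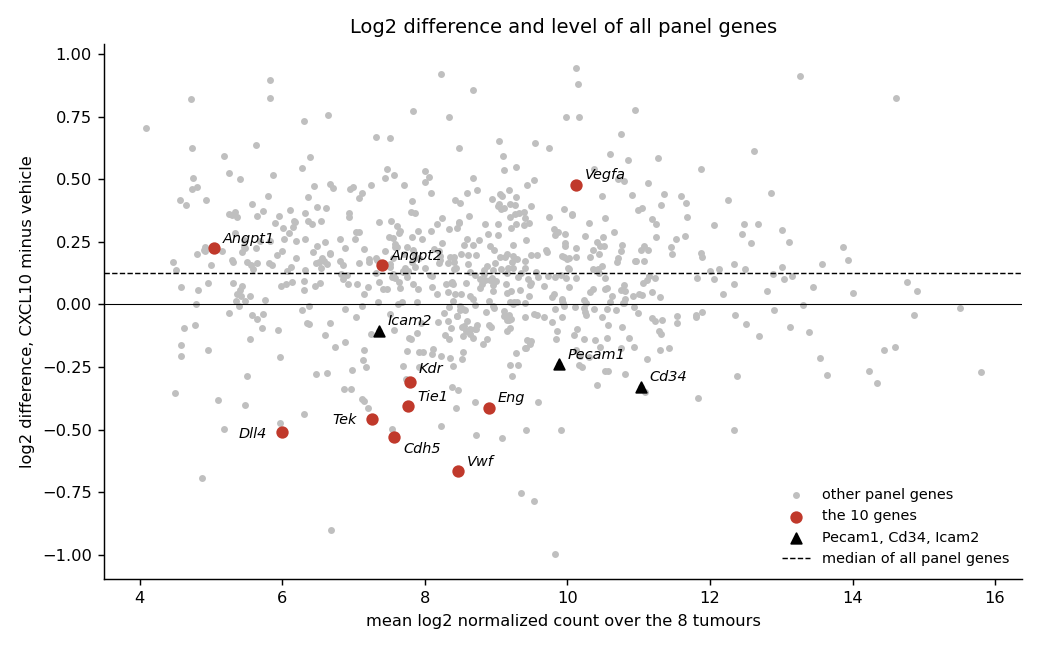
Log2 difference, CXCL10 minus vehicle (vertical axis), against the mean log2 level over the 8 tumours (horizontal axis) for all 693 genes (grey), the 10 genes (red) and Pecam1, Cd34 and Icam2 (black triangles). The dashed line is the panel median of 0.13. The 7 lower genes lie between -0.67 and -0.31, below Pecam1 at -0.24 and Icam2 at -0.10, while Cd34 at -0.33 lies just below Kdr.

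The 7 lower genes varied together from tumour to tumour. CXCL10 tumour 3 had the lowest level of all 8 tumours in 7 of the 7, and vehicle tumour 4 the highest in 6 of them, with Cdh5 as the exception. Over the 8 tumours the median Pearson r of their 21 pairs was 0.86, against 0.21 over all pairs of panel genes. With each group's mean taken off, so that the group difference no longer entered, the median r of the 21 pairs was 0.55, against 0.21 over all panel pairs. Those pairs ran from 0.012, for Cdh5 with Dll4, to 0.89, for Tek with Tie1. With each tumour centred on its panel median, which removes the factor that all genes of a tumour share, the values within groups were 0.60 for the 21 pairs and -0.0010 for the panel. CXCL10 tumour 3 and vehicle tumour 4 lay farthest from their groups. The mean standardized level of the genes other than Dll4 was -1.63 and 1.33 in those tumours. It was -0.50 to -0.47 in the other CXCL10 tumours and 0.48 to 0.67 in the other vehicle tumours. The r within groups leans on those tumours and was not computed without them. These are descriptions over 8 tumours.

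Angpt1, Angpt2 and Vegfa differed among themselves in this respect. Their r with the 7 genes within groups had a median of 0.049 over 21 pairs and ran from -0.61 to 0.87. With the mean standardized level of the 6 identity and receptor genes it was 0.51 for Angpt1, 0.044 for Vegfa and -0.43 for Angpt2 within groups, against 0.50 for Dll4. The highest of the 21 pairs within groups was Angpt1 with Cdh5, at 0.87, and the lowest Angpt2 with Vwf, whose products are stored together, at -0.61. CXCL10 tumour 3 and vehicle tumour 1 were each the lowest of their group in both Angpt1 and Cdh5. Angpt1 rests on 23 to 40 counts. As ends of a range over few tumours, nothing is read from these pairs.

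Differences between a pair of genes within the same tumour do not depend on a factor that scales the whole tumour, although quantile normalization can move them. Set against its receptor Tek, Angpt2 stood at log2 differences of 0.27, 0.24, 0.79 and 0.43 in CXCL10 tumours, against 0.0083, 0.080, -0.11 and -0.69 in vehicle tumours. All 4 CXCL10 tumours lay above all 4 vehicle tumours, and the mean shift was 0.61 (SE 0.21). It joins the log2 difference of -0.46 of Tek with the 0.16 of Angpt2, whose own groups overlapped. Angpt1 against Tek was also higher in every CXCL10 tumour, from -2.03 to -1.71 in CXCL10 and from -2.92 to -2.31 in vehicle tumours. Angpt2 against Angpt1 overlapped, with means of 2.32 ± 0.16 in CXCL10 and 2.39 ± 0.43 in vehicle tumours (SD, n = 4 each). Tie1 against Tek likewise overlapped, with 0.53 ± 0.097 in CXCL10 and 0.48 ± 0.092 in vehicle tumours (SD, n = 4 each). Vegfa against its receptor Kdr ran from 2.24 to 3.00 in CXCL10 tumours and from 1.44 to 2.38 in vehicle tumours. These groups overlapped, through vehicle tumour 2, with a mean shift of 0.79 (SE 0.26). Dll4 against Notch1, a receptor for it, was lower in every CXCL10 tumour, from -5.00 to -4.90 in CXCL10 and from -4.88 to -4.38 in vehicle tumours. The sign and size of each within-tumour value depend on the efficiency of both probes, so only the shift between groups can be read. All these genes except Notch1 were chosen by the same contrast, so their own differences enter the shifts. The share of all panel gene pairs that separate in this way was not computed, and nothing is read from the separation.

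Pecam1 (Entrez 18613), the defining endothelial marker that was not among the 10 genes, was less clear. Its log2 levels were 9.57, 10.26, 9.72 and 9.49 in CXCL10 tumours, against 10.04, 9.81, 9.99 and 10.15 in vehicle tumours. CXCL10 tumour 2 was the highest of all 8 and the other CXCL10 tumours were the lowest. The log2 difference was -0.24 (limma SE 0.17, adjusted p = 0.474 over 693 genes). Set against Pecam1 within each tumour, the 7 lower genes had mean shifts of -0.43 (Vwf) to -0.070 (Kdr), and for all 7 of them the groups overlapped. Pecam1 is also made by platelets and many leucocytes, and their part in its values was not tested.

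The rest of the vascular system on the panel was read from lists of textbook genes, of which 41 of 149 were measured in addition to the 10. Limma, fitted over the whole panel with Benjamini-Hochberg adjustment, called 0 of the 41 at an adjusted p under 0.05, where it called 0.289% of the panel (2 genes, both higher). The lowest adjusted p among the 41 was 0.120. At an unadjusted p under 0.05 there were 5 lower genes and 1 higher gene of the 41. Over the panel those shares were 4.04% lower (28 genes) and 15.0% higher (104 genes). With median-of-ratios scaling the panel's split at that level was 60 lower and 61 higher, and that of the 41 genes 12 lower and 1 higher. Of the 41, 29 had lower means as deposited, and 32 with median-of-ratios scaling or quantile normalization. Their median log2 difference was -0.065, against 0.13 over the panel. Of the 41, 5 lay lower in every CXCL10 tumour (Cspg4, Col4a1, Mmp9, Tgfb3 and Notch1), where 3.03% of the panel did. Another 3 lay higher (Itgb1, Smad2 and, by only 9.1e-05, Smad4), where 7.79% of the panel did.

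The 8 other endothelial markers measured all had lower means in CXCL10 tumours, with a median log2 difference of -0.17, and 0 passed limma's test. Cd34, a sialomucin of vessel and progenitor cells, stood at 10.86 ± 0.24 in CXCL10 and 11.19 ± 0.47 in vehicle tumours (SD, n = 4 each), a difference of -0.33 with an adjusted p of 0.448. Jam3, a junction protein, stood at -0.38 and Mcam at -0.24, with adjusted p of 0.335 and 0.285. Icam2, a constitutive adhesion molecule, stood at -0.10, Thbd, the thrombin receptor thrombomodulin, at -0.0052 and the transcription factor gene Tal1 at -0.0069. Adhesion genes of activated endothelium had higher means in 4 of 5 members, where 69.6% of all panel genes did. Under the 3 other scalings 3 of 5 were higher, and Icam1 changed sign. As deposited Sele (E-selectin) stood at 0.25, Vcam1 at 0.19 and Alcam at 0.37, against a panel median of 0.13. Of the 5, 0 passed limma's test (lowest adjusted p 0.330).

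Of the lymphatic list 2 of 7 genes were measured and neither passed. Ccl21a, a chemokine of lymphatic vessels and lymphoid stroma, had a log2 difference of -0.75 (limma SE 0.25, adjusted p = 0.181), with means of 8.97 ± 0.31 in CXCL10 and 9.73 ± 0.50 in vehicle tumours (SD, n = 4 each). Lyve1, a hyaluronan receptor of lymphatic endothelium and some macrophages, stood at -0.34 (adjusted p = 0.446). Among VEGF, PDGF and FGF family genes, Vegfc, the ligand of lymphatic growth, stood at -0.050, the VEGF co-receptor gene Nrp1 at -0.099 and Pdgfrb at -0.28, and 0 of 4 passed. In the Notch pathway 0 of 3 passed, with Notch1 at -0.17 (adjusted p = 0.394).

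Genes of the TGF-beta pathway, in which endoglin takes part, went both ways, with 4 of 8 lower (5 of 8 under the 3 other scalings, where Smad3 changed sign) and 0 passing. Tgfb3 stood at -0.39 (adjusted p = 0.167), lower in every CXCL10 tumour, as were 3.03% of panel genes, and the receptor gene Tgfbr2 at -0.14. The signal carriers Smad2 and Smad4 stood at 0.27 and 0.22, with adjusted p of 0.259 and 0.330. Smad2 was higher in every CXCL10 tumour, as were 7.79% of panel genes, and in Smad4 the groups met at a level of 10.15. Of 9 angiogenesis effectors and inhibitors 0 passed. Col4a1, a collagen of the vessel basement membrane, stood at -0.50 (adjusted p = 0.123) and Mmp9, a protease that remodels it, at -0.53 (adjusted p = 0.167). Itgb1, the shared chain of many matrix receptors, stood at 0.42 (adjusted p = 0.195), and Thbs1, an inhibitor of vessel growth, at -0.21 (adjusted p = 0.598). Hif1a, the only hypoxia gene measured of 15 listed, stood at 0.25 (adjusted p = 0.573), so hypoxia was not assessed beside Vegfa.

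**Figure D4:**
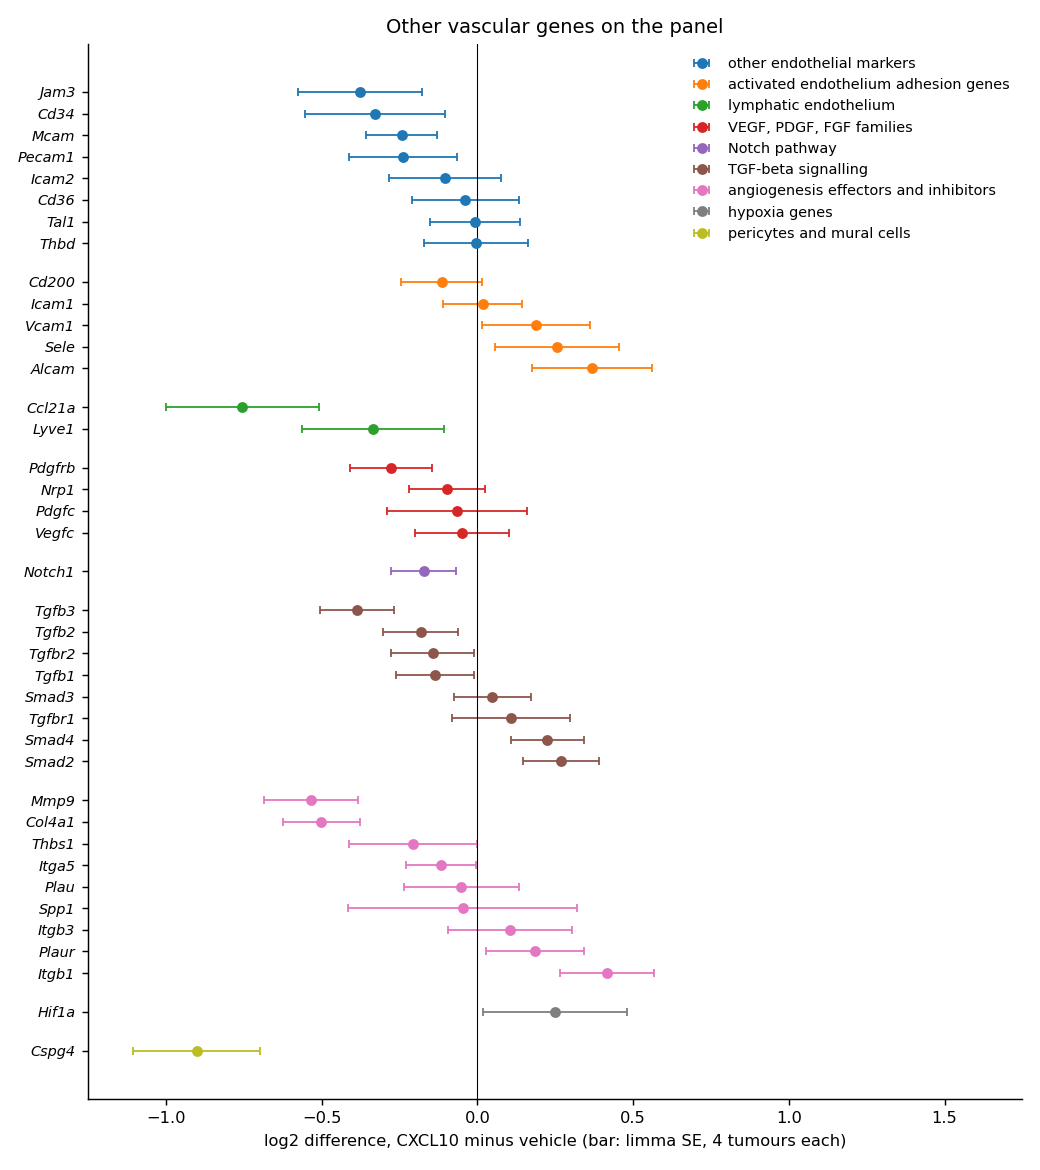
Log2 difference, CXCL10 minus vehicle (horizontal axis), of the other vascular genes (rows), coloured by list, with the limma SE as bars. Of the Notch list, Notch1 alone is drawn. Pdgfrb and Mcam, which belong also to the pericyte list, are drawn once. Cspg4 at -0.90, Ccl21a at -0.75, Mmp9 at -0.53 and Col4a1 at -0.50 lie farthest left, and 0 of the 41 passed limma's test.

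Genes of pericytes, the contractile cells that wrap small vessels, also had lower means. Cspg4 (Entrez 121021), which encodes the pericyte proteoglycan NG2, had log2 levels of 6.55, 6.55, 5.59 and 6.26 in CXCL10 tumours, against 7.10, 7.02, 7.18 and 7.26 in vehicle tumours. Every CXCL10 tumour lay below every vehicle tumour, as in 3.03% of panel genes, and CXCL10 tumour 3 was again the lowest. The difference was -0.90 (limma SE 0.20, adjusted p = 0.120). All 3 measured genes of the 10 in the pericyte list had lower means, and their summed level was 596 to 784 normalized counts in CXCL10 tumours, against 844 to 914 in vehicle tumours. Mcam, also an endothelial marker and with groups that overlap, made up 77.1% of that sum in CXCL10 and 72.7% in vehicle tumours. Without it the sum was 115 to 189 in CXCL10 tumours, against 226 to 259.8 in vehicle tumours. Cspg4 is the only 1 of the 3 genes whose groups separate. Pdgfrb, at 66.9 to 95.5 in CXCL10 and 93.2 to 106.8 in vehicle tumours, overlapped.

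Markers of other cells were read beside these values. Fibroblast genes had lower means in 6 of 7 measured members. Their summed levels, mostly Col1a1, Col3a1 and Fn1, were 65959 to 102371 normalized counts in CXCL10 and 73672 to 97454 in vehicle tumours, which overlap. Of the 7, 2 lay lower in every CXCL10 tumour, against 3.03% of the panel. They were Vim at -0.50 (adjusted p = 0.168 by limma) and Cxcl12 at -0.35 (adjusted p = 0.223). All 12 measured T cell genes had higher means (11 with median-of-ratios scaling), with sums of 3257 to 3946 in CXCL10 tumours, against 2436 to 3389 in vehicle tumours. Other lists had no settled direction. General leucocyte genes had higher means in 5 of 5 members as deposited but in 3 of 5 with median-of-ratios scaling, macrophage genes in 8 of 11 but 3 of 11, and carcinoma cell genes in 4 of 6 but 2 of 6. Ptprc, the defining leucocyte gene, had a log2 difference of 0.32 (adjusted p = 0.330) and Epcam, that of carcinoma cells, 0.35 (adjusted p = 0.223). No gene of these lists was at 0 counts in any tumour, and the part of these cells in the vessel gene levels was not tested. Cxcl10 RNA itself stood at log2 levels of 12.52 to 13.63 in CXCL10 tumours, against 11.98 to 12.58 in vehicle tumours. Its receptor gene Cxcr3 stood at 7.54 to 7.79 in CXCL10 tumours, against 7.26 to 8.06 in vehicle tumours.

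Which other panel genes followed the vessel genes was asked with the mean of the standardized levels of the 6 identity and receptor genes (Cdh5 to Kdr). This mean was -1.63 in CXCL10 tumour 3 and -0.50 to -0.47 in the other CXCL10 tumours, against 0.48 to 1.33 in vehicle tumours. Over the 8 tumours the 5 genes outside the 10 with the highest Pearson r were Lrp1 (r = 0.97), Cspg4 (0.97), Egr1 (0.96), Vim (0.93) and Cxcl12 (0.92), with Spearman rho of 0.88 to 0.93. Lrp1 encodes an endocytic receptor of stromal cells and macrophages, Egr1 an immediate early transcription factor, Vim the intermediate filament of mesenchymal cells and Cxcl12 a stromal chemokine. With group means taken off, Lrp1 (0.92), Egr1 (0.90) and Cspg4 (0.88) were again the highest, followed by the complement gene C4b (0.88) and the clotting factor gene F13a1 (0.86).

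Without CXCL10 tumour 3 and vehicle tumour 4, the tumours farthest from the median, r over the other 6 tumours was 0.91 for Lrp1, 0.96 for Cspg4, 0.84 for Egr1 and for Vim, and 0.69 for Cxcl12. In those tumours the mean standardized level was -0.50 to -0.47 in CXCL10 and 0.48 to 0.67 in vehicle tumours. An r with it there mostly restates the group difference, by which the vessel genes were chosen. The r within groups was not computed for those tumours. C4b and F13a1, high with group means taken off, had a plain r of 0.70 and 0.39 over the 8 tumours, and of -0.22 and -0.77 over the 6. The lowest r over the 8 tumours belonged to the proteasome genes Psma2 (-0.95) and Psmb7 (-0.89), the lymphocyte receptor gene Cd96 (-0.94) and the cell death and signalling genes Bid (-0.93) and Bcl10 (-0.91). Pecam1 had an r of 0.51, and 0.26 within groups. Dll4, a gene chosen by the same contrast, had one of 0.91, and 0.50 within groups. All these values are descriptions over 8 tumours that share their group difference and their scaling.

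**Figure D5:**
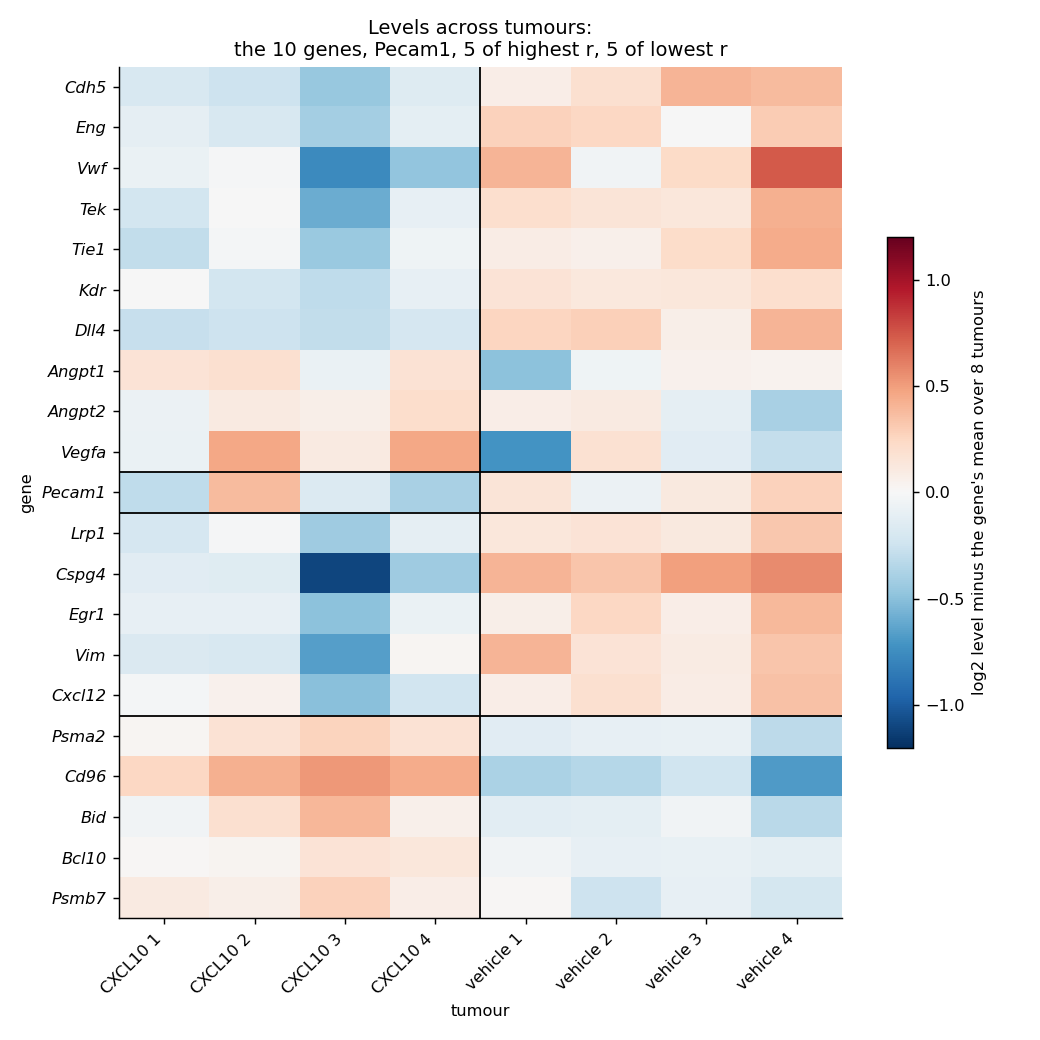
Log2 level minus the gene's mean over the 8 tumours (colour) for the 10 genes, Pecam1, the 5 genes of highest r and the 5 of lowest r (rows), in 4 CXCL10 tumours (left) and 4 vehicle tumours (right). CXCL10 tumour 3 is the bluest of the 8 tumours in the upper 7 rows, and Cspg4 in that tumour, at a level of 5.59, is the deepest blue.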

How the data were processed

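RNA of whole tumours, extracted with TRIzol and columns per the labels' protocols, was read on a panel of 782 probes, of which the authors' flags pruned 55 of 748 endogenous ones. The deposited values are log2 normalized counts of 693 genes in 8 tumours. Per the file headers, 6 of 20 housekeeping genes were used in normalization; software is not given in the sources used here. Taken out of log2, 100% of values were whole multiples of 1 step per tumour (tolerance 0.02 counts), and the recovered counts gave the deposited coefficient of variation, in percent, for 693 of 693 genes. A further 16 value columns matched no sample and were not used, negative controls among them, so probe background was not assessed. A gene counted in the Notch list is not reported here by name.

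Genes outside the 10 were tested with lmFit and plain eBayes of limma 3.58.1 in R 4.3.3, group as the only term, Benjamini-Hochberg over 693 genes, at 0.05. The script was tested on simulated data. SE of a member's difference comes from the group SDs. Symbols and Entrez identifiers are the authors'. Members, lists, gene pairs and the plain eBayes were chosen with earlier results of these data known. Named genes are the members, vascular genes with p under 0.05 or the 3 smallest per list, the genes of highest and lowest r, and defining markers. Others were named after their values were seen (Thbd, Tal1, Icam1, Icam2, Tgfbr2, Smad3, Thbs1, Ppbp, Itgb3).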

Additional observations from a re-analysis of the deposited data

Results flagged for a closer look

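Dixon's criterion at the 95% level was applied to each group of 4 values of the 49 named genes. It singled out 1 tumour in 4 of the 98 groups, where chance gives about 1 in 20.

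In Angpt1, CXCL10 tumour 3 was low at 4.96 (log2), and CXCL10 tumours 1, 2 and 4 lay between 5.20 and 5.23. That tumour was also low in Egr1, with 9.09, whereas its group otherwise lay between 9.49 and 9.51. In Smad2, CXCL10 tumour 2 was high at 8.16, and the rest of its group lay between 7.88 and 7.90. In Nrp1, vehicle tumour 1 was low at 10.03, and the rest of the vehicle tumours lay between 10.22 and 10.26.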

How the results depend on the processing

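Of 120 differences of single members recomputed under the 12 settings that could move them, 116 moved by less than 1 SD between tumours and 0 changed sign. The other 4 were Kdr at -0.41 and -0.43 and Dll4 at -0.62 and -0.65, each with median-of-ratios scaling and quantile normalization in that order. The members' median ran from -0.52 with median-of-ratios scaling to -0.33 without CXCL10 tumour 3, and -0.45 to -0.33 over the tumours left out. In every setting 7 members were lower. Those without overlap were 5 with panel median centring, 7 without vehicle tumour 2 or without CXCL10 tumour 2, and 6 otherwise. Groups separate more easily with a tumour left out. The panel share was 3.03% as deposited and was not computed for the other settings. The same contrast chose the members, so nothing is read from these counts.

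The 2 panel genes called by limma, Cd96 and Il18r1, became 0 with panel median centring, median-of-ratios scaling, a mean log2 level of at least 5, a mean-variance trend, the replicate block and voom. Quantile normalization called 1 gene, Dll4, a member, which is no support for it. With 1 tumour left out the count ran from 0 to 5: it was 5 without vehicle tumour 2 and 0 without any other. The cause was not tested. Of the 41 other vascular genes 0 were called in every setting run (lowest adjusted p 0.0667).

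Replicate numbers share no stated source. Deviations of same-numbered tumours correlated at 0.25, -0.32, 0.23 and -0.26 for numbers 1 to 4. Tumours of unlike number ran from -0.47 to 0.40. A pairing by number was therefore not seen, though so few tumours cannot exclude one. A balanced block cannot move a mean difference. The edgeR alternative was not run. Voom was the count model run on the recovered counts. Counts limit Angpt1 and Dll4 most.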
